A study of Mus musculus with 3 samples.

Results

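A set of 3130 assembled transcripts at 2951 loci held no RefSeq gene in the transcript files of this study, out of 47490 transcripts in all. They were chosen by name alone: StringTie gives a transcript that it builds from reads an identifier starting with MSTRG, and a locus was kept where none of its transcripts carried a RefSeq gene name. The other transcripts were 34970 RefSeq transcripts of 24402 gene symbols and 9390 assembled transcripts at loci of RefSeq genes. The cells were 4T1, a Balb/c mouse line of triple-negative breast cancer, grown as spheroids enriched for cancer stem cells (CSCsp). There was 1 library for each of 3 conditions, called N, P and R here. N was CSCsp with no co-culture. P was CSCsp cultured with tumor antigen primed splenocytes, the white cells of the spleen of female Balb/c mice 28 days after 4T1 cells were placed in the mammary fat pad. R was CSCsp cultured with splenocytes of the same source after reinforced activation with anti-CD3/CD28 beads and IL2. Spheroids were separated from splenocytes on a 40 µm strainer, and each library was made from equal amounts of RNA of several experiments, so its values are a pool and no spread between cultures can be given.

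Without replicates, no difference below was tested, and each value describes these 3 libraries. The wording under which the N and P files were deposited does not match their labels. The N file is named for saline and the P file for no treatment. In the paper's account of this experiment, primed splenocytes without reinforced activation were incubated in phosphate buffered saline. Groups were taken from the labels, so each direction that involves N or P rests on them, and exchanging both libraries would turn P over N around and swap R over N with R over P. The libraries held 17894139 (N), 17887652 (P) and 19178982 (R) aligned fragments, computed from the coverage in the files with 300 bases assumed for each read pair. The labelled cell type carried its defining markers: all 5 epithelial markers (Epcam, Krt8, Krt18, Krt19 and Cdh1) had an FPKM of at least 1 in every library. FPKM is a fragment count scaled to the length of the transcript and the size of the library, so it can be compared between transcripts of different length.

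A reference-guided assembler reports a transcript wherever spliced or piled-up reads form a block, whether or not a gene is annotated there. Such blocks come from non-coding RNA genes, from genes that the annotation used had not yet listed, from introns of unspliced RNA, from repeats, and from retrocopies. A retrocopy, or processed pseudogene, is an intronless DNA copy of a messenger RNA that was reverse transcribed and inserted into the genome; ribosomal protein genes and Gapdh, a glycolytic enzyme gene, are known for having many in rodents. Where a retrocopy and its parent gene have the same sequence, a read of either fits both places, and the value each receives depends on how the aligner and the assembler place it.

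The sequences of 4 retrocopies are shown beside their parents: 2 of the most abundant, and 2 with no difference from the parent whose values are given with their families below. Each stretch below is 120 coding bases of a GENCODE M21 transcript (GRCm38), 5′ to 3′, with bases that differ between copy and parent in capitals. Gm13394 (chr2:28934205-28934324, minus strand), at the locus with the highest mean FPKM, differed from Gapdh at 1 of 999 coding bases.
Gm13394: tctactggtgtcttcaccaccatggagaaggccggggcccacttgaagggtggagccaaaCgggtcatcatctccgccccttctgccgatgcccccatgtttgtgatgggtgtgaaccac
Gapdh: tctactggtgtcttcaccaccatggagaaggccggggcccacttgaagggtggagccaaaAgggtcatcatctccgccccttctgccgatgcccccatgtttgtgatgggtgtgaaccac
Gm15772 (chr5:3236603-3236722, plus strand) differed from Rpl26, a protein of the large ribosomal subunit, at 2 of 435 coding bases.
Gm15772: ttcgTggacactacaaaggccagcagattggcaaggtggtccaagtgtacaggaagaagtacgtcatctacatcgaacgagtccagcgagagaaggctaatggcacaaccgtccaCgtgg
Rpl26: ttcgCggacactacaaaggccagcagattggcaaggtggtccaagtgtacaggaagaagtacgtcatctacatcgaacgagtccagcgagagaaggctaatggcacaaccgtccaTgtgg
Gm10123 (chr9:96895658-96895777, plus strand) had no difference from Ppia, the peptidyl-prolyl isomerase cyclophilin A, over the 490 bases aligned, so its stretch is that of both.
Gm10123 and Ppia: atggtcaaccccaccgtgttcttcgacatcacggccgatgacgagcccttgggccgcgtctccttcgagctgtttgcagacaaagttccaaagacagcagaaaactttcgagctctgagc
Rps27rt (chr9:114982588-114982707, minus strand) had none from Rps27, a protein of the small ribosomal subunit, over 252 coding bases.
Rps27rt and Rps27: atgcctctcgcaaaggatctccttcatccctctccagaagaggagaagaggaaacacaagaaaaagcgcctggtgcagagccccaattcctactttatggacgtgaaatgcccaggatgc

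Most of the assembled transcripts were short and had a single exon. Of the 3130, 2420 (77.3%) had 1 exon, 475 had 2 and 235 had 3 or more, up to 22. Their length ran from 200 to 22577 bases, with a median of 592 and quartiles of 353 and 1190.75 bases. Single-exon transcripts had a median of 524.5 bases and multi-exon transcripts one of 1000 bases. A strand was given for the 710 multi-exon transcripts, 351 on the plus and 359 on the minus strand, and for 54 single-exon transcripts; the other 2366 had none. Of the 2951 loci, 2852 held 1 transcript, and the largest number in a locus was 12. At 36 loci the strand differed among the 3 files, so strand is given here only where it did not. Introns were often very short: 85 of the 710 multi-exon transcripts (11.97%) had an intron of under 60 bases, against 405 of 9375 (4.32%) of those assembled at RefSeq loci and 69 of 30870 (0.224%) of RefSeq transcripts. The median intron was 1109 bases, beside 1128 and 1375 bases in those sets.

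**Figure D1:**
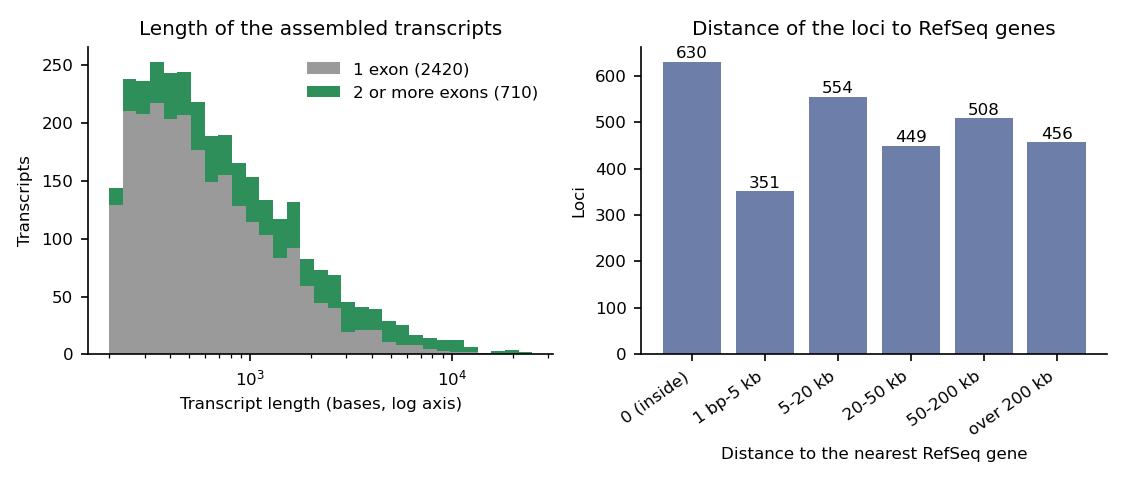
Left, the length of the 3130 assembled transcripts in bases on a log axis, stacked by exon count; right, the number of loci by distance to the nearest RefSeq gene of the same files (3 mitochondrial loci, with no RefSeq gene on their chromosome, are left out). Single-exon transcripts (2420) make up most of each length class under 1000 bases, and 630 loci lie inside a RefSeq gene's span.

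The loci lay on every chromosome, from 226 on chromosome 2, 214 on chromosome 1 and 202 on chromosome 4 to 68 on chromosome 19, 29 on Y and 3 on the mitochondrial genome. Of the 2951 loci, 630 lay inside the span of a RefSeq gene, 572 of them in or across an intron and 58 sharing exon bases. A further 351 lay within 5 kb of a RefSeq gene, 193 on the upstream and 158 on the downstream side. There were 964 loci at 50 kb or more, 47 of them at 1 Mb or more, and the farthest was 2247876 bases away. The median distance of loci outside RefSeq genes was 32088 bases.

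Against GENCODE M21, an annotation with more genes than the one the authors assembled on, 1323 loci (44.8%) shared exon bases with an annotated gene. Processed pseudogenes made up the largest annotated class, with 888 loci. Another 187 loci fell on protein-coding genes, 152 on long non-coding RNAs, 62 on other pseudogenes, 20 on genes of the class TEC (awaiting experimental evidence), 7 on small RNA genes, 4 on antigen receptor segments and 3 on mitochondrial genes. The rest were 452 loci in introns of GENCODE genes and 1176 with no GENCODE gene. A later RefSeq release (GRCm38.p6) had a gene span over 1786 of the 2951 loci, and at 769 of the loci a span of a protein-coding gene. Spans include introns and either strand was counted, so this is no count of loci annotated since.

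The longest and the most exon-rich members were mostly at genes that GENCODE names. The longest transcript, MSTRG.14362 (22577 bases, 1 exon), covered Kdm4dl, a relative of the histone demethylase Kdm4d, with FPKM of 4.15 in N, 3.96 in P and 3.99 in R. MSTRG.4782 on chromosome 15 covered G930009F23Rik with 9 exons, and its FPKM was 13.0, 6.53 and 15.3. The third longest, MSTRG.14489 (chromosome 9), lay over no GENCODE exon and had 3.0, 3.27 and 1.88. The largest numbers of exons were 22 at MSTRG.8286 and 11 at MSTRG.8287, neighbouring loci on Stard9, a kinesin-like gene (FPKM of 0.84, 1.15 and 0.73 at the first and 0.76, 1.13 and 0.93 at the second), and 13 at MSTRG.15572 on Atg4a, a protease of autophagosome formation (2.60, 2.85 and 2.85). Of these 6, G930009F23Rik alone passed an FPKM of 5.

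The level of most loci was low and a few were very abundant. The median FPKM of a locus, summed over its transcripts, was 1.96 in N, 1.99 in P and 1.79 in R, and the 90th percentile 21.6, 20.5 and 18.95. In N, P and R, 2545, 2566 and 2351 loci had an FPKM of 1 or more, 2905 did in any library, and 75 loci had at least 100 in all 3. The loci took 12.1% (N), 12.2% (P) and 10.6% (R) of all FPKM and 6.33%, 6.06% and 5.91% of the fragments on transcripts. The 10 loci of highest mean held 20.5%, 21.8% and 19.5% of the FPKM of all loci.

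**Figure D2:**
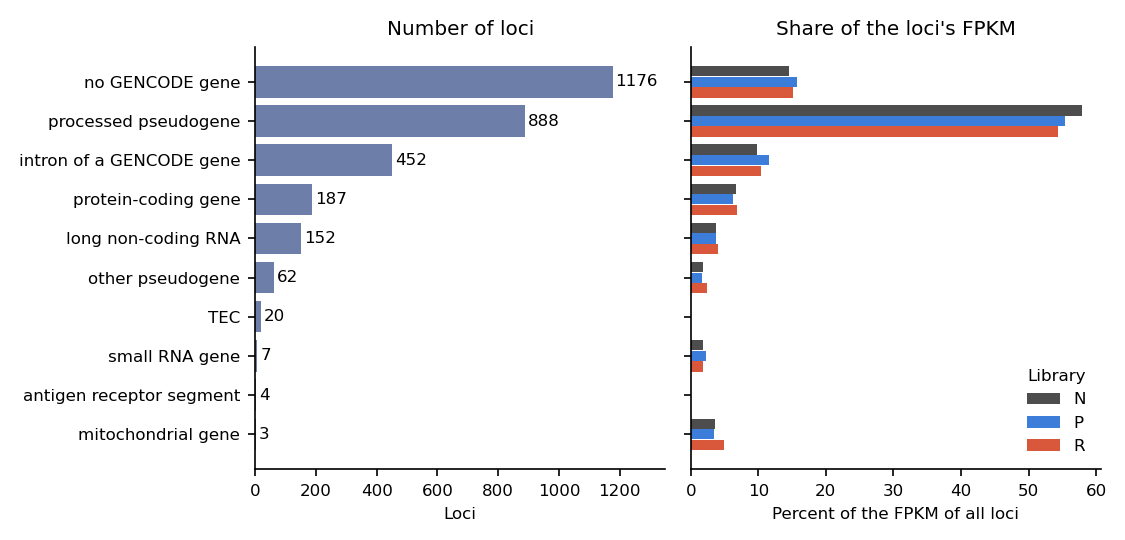
Left, the number of loci in each GENCODE class; right, the percent of the FPKM of all loci that each class held in the libraries N, P and R. The 888 processed pseudogenes held 57.9%, 55.4% and 54.3%, and the 1176 loci with no GENCODE gene 14.6%, 15.7% and 15.1%.

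Among the 10 most abundant loci, 5 were retrocopies. MSTRG.7764 (chr2:28933425-28934685), the Gapdh copy Gm13394 shown above, had an FPKM of 1859 in N, 1743 in P and 926 in R. MSTRG.14040 (chromosome 8, Gm8730), a copy of Rplp0, the ribosomal stalk protein, had 888, 824 and 744. MSTRG.10603 (chromosome 5, Gm15772), a copy of Rpl26, had 835, 773 and 652. MSTRG.8054 (chromosome 2, Gm4735), most similar to the enolase gene Eno1b, had 832, 847 and 531. MSTRG.6882 (chromosome 18), a copy of Rps2, had 937, 873 and 820. The identity with the parent was 98.7% at MSTRG.14040, 99.8% at MSTRG.8054 and 99.4% at MSTRG.6882. R was the lowest library at all 5, by a factor of 2.01 (interval 1.98 to 2.04) against N at the Gapdh copy. Intervals are exact 95% Clopper-Pearson intervals on the fragments and cover counting error only, not the variation between cultures.

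The other 5 were of different kinds. MSTRG.15154, covering most of the mitochondrial genome from base 5344 to 15283, had an FPKM of 819, 750 and 971. MSTRG.14261 (chr8:123425854-123434532, minus strand, 3844 bases from Tubb3) overlapped no RefSeq gene and lay in an intron of a GENCODE gene, with an FPKM of 870, 776 and 886. It was built as an unspliced transcript of 8679 bases (675, 614 and 722) and a spliced one of 2 exons with an intron of 5299 bases (195, 162 and 164). Neither differed by 2-fold between libraries, while Tubb3 was at 0.05, 0 and 0.08. MSTRG.8811 (chromosome 3, 284085 bases from Pex2) had 869, 1161 and 728, MSTRG.5640 (chromosome 16, in an intron of Filip1l) 851, 1236 and 748, and MSTRG.5340 (chromosome 16, on the small RNA gene Gm23935 inside Zc3h7a) 711, 879 and 605. These 3 short single-exon loci were highest in P and lowest in R. Filip1l itself was at 6.05, 4.63 and 5.45.

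MSTRG.8811 and MSTRG.5640 belong to a set of 18 loci without GENCODE exons that had an FPKM of at least 100 in each library, a set chosen after the values were seen. Of the 18, 17 had a single exon, 15 were highest in P and 3 in R. In 11 of them, 220 to 813 bases long and with both loci just named among them, P was above N and N above R. These 11 were picked for that order, so the direction of their ratios is no result. Their summed FPKM was 3303, 4490 and 2828; P over N ranged from 1.04 to 1.46 (median 1.34) and R over P from 0.605 to 0.716 (median 0.627).

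Retrocopies held most of the FPKM of the loci, so each was set beside the protein-coding gene most similar to it in sequence. That gene is called its parent here, and whether the copy came from it was not tested. A similar protein-coding gene was found by BLAST for 1028 loci (868 of the 888 processed pseudogenes), with 571 parent genes. The identity had a median of 98.7% and was 99% or more at 447 loci (43.5%) and 100% at 102. These 1028 loci held 67.0%, 64.0% and 64.0% of the loci's FPKM in N, P and R. Ribosomal protein genes were the largest group of parents, with 270 loci from 71 genes and 36.8%, 34.3% and 36.2% of the FPKM. Of these ribosomal loci above the FPKM limit, 218 of 263 were below N in R, with a median log2 ratio of -0.20. Past 2-fold, 9 were lower and 1 was higher. Over all loci the median was also -0.20, with 1804 of 2757 below N and 6.86% past 2-fold downward.

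For 49 parent genes, more fragments were assigned to the copies than to the gene in all 3 libraries. Gapdh had the largest sum at copies: its 39 copies reached an FPKM of 4478 (N), 4213 (P) and 2212 (R), while the Gapdh gene itself had 39.0, 70.6 and 12.6. The copies took 97.6%, 97.2% and 98.1% of the fragments of the family. The fragments of copies and gene together were 0.490 times as many in R as in N per fragment of the library (0.485 to 0.496), with 0.493 for the copies and 0.381 (0.352 to 0.411) for the gene. Copies and gene were both lower in R than in N.

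Several ribosomal protein genes likewise had far more signal at their copies than at the gene. Rpl21 had an FPKM of 0.76, 0.53 and 0.47 at the gene and 595, 599 and 522 over 12 copies. Rpl26 had 10.8, 7.79 and 3.29 at the gene and 836, 774 and 653 over 2 copies. The Rps2 gene had 76.0, 73.5 and 58.1, and its 21 copies 1710, 1599 and 1517. At Rpl30 the gene and its copies did not go together: the gene was at 62.3, 37.4 and 12.6 and its 5 copies at 878, 881 and 870. The R over N ratio of fragments was 0.22 (0.183 to 0.263) at the Rpl30 gene, 0.990 (0.959 to 1.02) at the copies and 0.928 (0.899 to 0.957) over both.

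The opposite case was Ppia. The Ppia gene had an FPKM of 574, 613 and 756, and its 7 copies 529, 482 and 233, of which Gm10123 (MSTRG.14903) alone had 510, 460 and 213. The share of fragments at the copies was 46.0% in N, 42.7% in P and 22.5% in R. The R over N ratio was 0.439 (0.421 to 0.458) at the copies, 1.29 (1.25 to 1.33) at the gene and 0.897 (0.876 to 0.918) over both. The copies alone would thus be read as lower and the gene alone as higher, while the sum was nearer to N.

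Rpl7a differed in P. Its 15 copies had a summed FPKM of 822, 459 and 665 and the gene 259, 442 and 226, so the copies took 68.7%, 41.2% and 67.4% of the fragments. The P over N ratio was 0.545 (0.526 to 0.565) at the copies, 1.71 (1.65 to 1.78) at the gene and 0.911 (0.888 to 0.934) over both. Rps27 was lower than in N at both places: its copy Rps27rt (MSTRG.15076) had 447, 226 and 163, the Rps27 gene 42.4, 28.7 and 21.1, and the fragments over both were 0.386 times N in R (0.362 to 0.411) and 0.531 times N in P (0.501 to 0.563). Rplp0 (4 copies) and the chaperone gene Hspa8 (3 copies) divided their fragments alike in all libraries, with 54.2% to 54.9% and 45.7% to 46.4% at the copies.

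**Figure D3:**
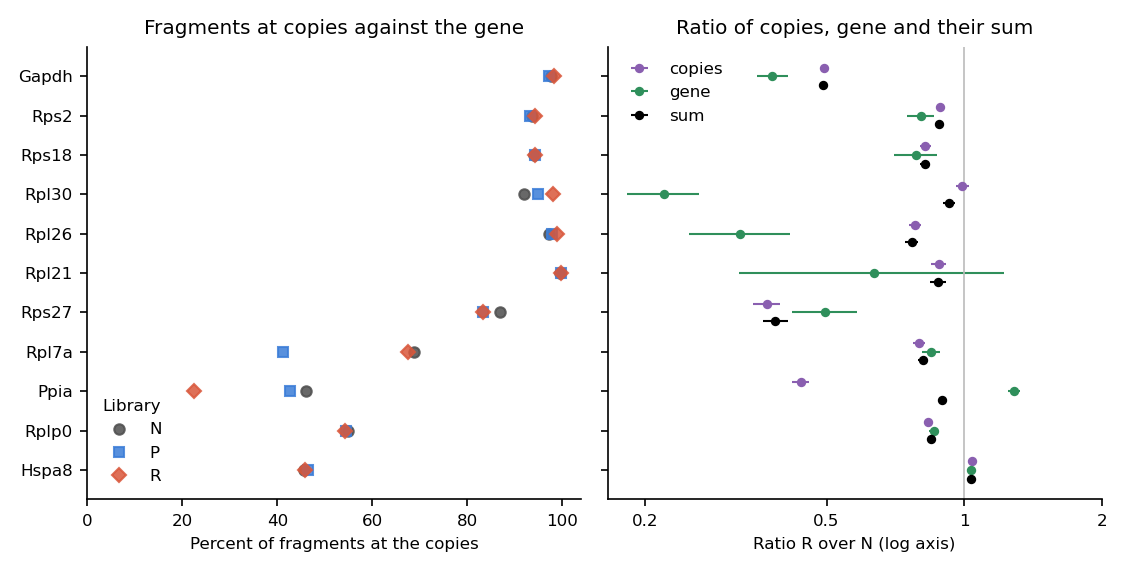
For 11 parent genes: left, the percent of the fragments of gene and copies that lay at the copies in N, P and R; right, the R over N ratio of fragments (log axis) for copies, gene and their sum, with exact 95% intervals of counting error. Copies, gene and sum lie together at Hspa8, while at Ppia the copies are at 0.439 and the gene at 1.29, and at Rpl30 the gene is at 0.22.

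The differences between libraries at single loci with a similar gene were therefore also read over the family. Not all of these loci are processed pseudogenes. Of those with an FPKM of at least 5, 4 were at least 2-fold higher in P than in N. For 0 of them was the sum of gene and copies 2-fold higher too. Of 10 that were 2-fold lower in P than in N, the sum was 2-fold lower for 1. In R over N, the family was apart for 5 of 10 higher and 17 of 22 lower loci. These 5 include 4 loci on chromosome 7, described below, that GENCODE calls pseudogenes that are not processed. In R over P it was apart for 5 of 13 higher and 2 of 9 lower. Over 480 loci, the log2 ratio at the locus and at the parent gene had a Pearson correlation of -0.07 for P against N, 0.62 for R against N and 0.64 for R against P; families with many copies count many times here, and the points share libraries and reads.

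Over all loci, few differed by 2-fold or more between libraries. Ratios are log2 of FPKM + 0.1, and a locus was compared where at least 1 of both libraries had an FPKM of 1 or more. Comparing P with N, 59 of 2779 loci stood 2-fold or more above and 105 as far below (2.12% and 3.78%), against 0.521% and 1.53% of 11140 RefSeq genes. Comparing R with N, 126 of 2757 stood above and 189 below (4.57% and 6.86%), against 3.07% and 1.87% of 11203 RefSeq genes. Comparing R with P, 141 of 2788 stood above and 182 below (5.06% and 6.53%), against 4.14% and 1.69% of 11214 RefSeq genes. The balance of R over P turned around with a pseudocount of 1 (57 above, 42 below), at an FPKM of at least 5 (25 and 20), for loci with 2 or more exons (61 and 55) and for those with 100 or more fragments (41 and 37).

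The loci held far fewer fragments than genes, with a median of 63 over both libraries compared against 1014 to 1094. The counting interval of the fragment ratio stayed clear of 1 at 24 of the 59 and 50 of the 105 loci in P over N, at 78 of 126 and 108 of 189 in R over N, and at 94 of 141 and 93 of 182 in R over P. At the other loci past 2-fold it held 1.

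The level of the loci as a whole was lower in R. The median log2 ratio was -0.01 for P against N, -0.20 for R against N and -0.20 for R against P, while that of RefSeq genes was 0.03, 0.08 and 0.03. In R over N, 1804 of 2757 loci were below 0. For loci with 2 or more exons the R over N median was -0.05, and for loci with no similar gene, a set added after the values were seen, it was -0.28. By class, the R over N median was -0.31 for loci with no GENCODE gene, -0.30 in introns, -0.12 for processed pseudogenes, -0.11 for long non-coding RNAs, 0.06 for protein-coding genes and 0.16 for other pseudogenes. Rescaled to RefSeq genes, these medians were -0.38, -0.37, -0.19, -0.23, -0.01 and 0.08, so that of protein-coding genes changed its sign. Intron loci of GENCODE genes had 15 higher and 45 lower of 402. Other pseudogenes had 15 higher and 2 lower of 58, and 12 of these 15 lie in the clusters described next.

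**Figure D4:**
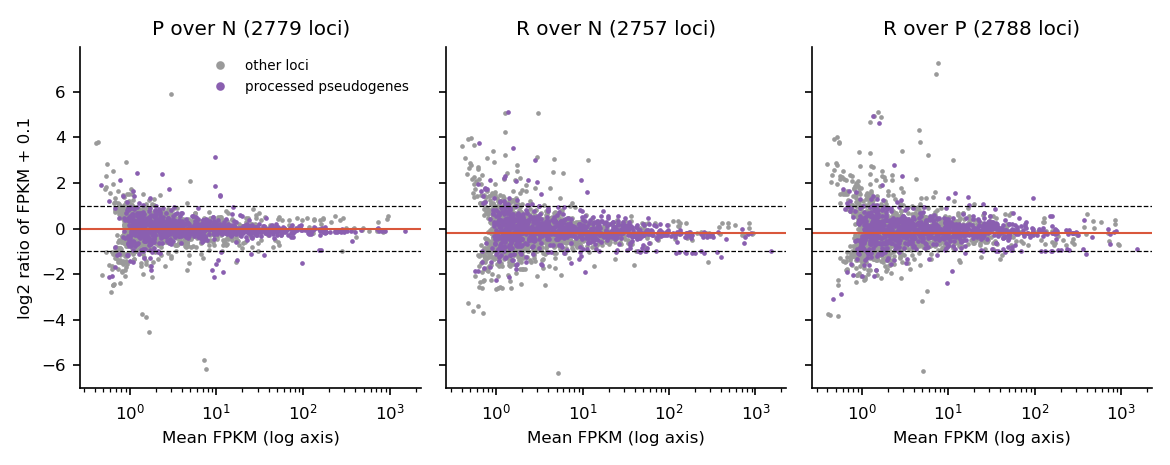
The log2 ratio of FPKM + 0.1 of each locus against its mean FPKM (log axis), for P against N, R against N and R against P, with processed pseudogenes in purple, dashed lines at 2-fold and a red line at the median. The median is at -0.01, -0.20 and -0.20, and the spread narrows as the mean FPKM grows.

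Of the 5 loci with the largest R over N ratios among those reaching an FPKM of 5 in N or R, 4 lay on chromosome 7 among genes of very large interferon-inducible GTPases (the Gvin family, known as targets of interferon-gamma). MSTRG.13127 (chr7:106508585-106529175, minus strand, Gm8995) had an FPKM of 3.30 in N, 3.35 in P and 27.5 in R, a ratio of R over N of 8.34 (7.22 to 9.81). MSTRG.13110 and MSTRG.13111, single-exon blocks on 9130208D14Rik, had 1.36, 0.76 and 11.98 and 0.76, 0.61 and 7.43, ratios of 8.81 (5.61 to 13.9) and 9.76 (6.45 to 15.9). MSTRG.13126 (Gm8995, plus strand) had 1.91, 0.48 and 11.2. Its first exon overlaps that of MSTRG.13127 on the other strand, and without stated strand-specific libraries their reads cannot be told apart. These 4 were picked for this ratio and reached an FPKM of 5 in R alone, so that R stood above N and P is no result. GENCODE calls all 4 pseudogenes that are not processed, and their sequence was most like that of Gm4070, a gene of the family (91.9% identity at MSTRG.13127).

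All 6 loci in this interval (chr7:105826868-106603861) stood at least 2-fold higher in R than in N, with a median log2 ratio of 2.95 and a summed FPKM of 7.995, 5.85 and 61.3. Of these 6, 3 had an FPKM under 1 in N and P and were compared only through R, so they had to stand higher there. RefSeq genes of the family there were also higher in R: Gm4070 was at 2.37, 1.17 and 27.4 and Gm1966 at 1.97, 1.44 and 16.1. MSTRG.13126 and MSTRG.13127 lie inside the span of Gm1966 (chr7:106501081-106644645), MSTRG.13127 on its strand. Whether their reads are those of Gm1966 was not tested. Of the 8 RefSeq genes from Rrp8 to Gm1966 above the FPKM limit, 3 were 2-fold higher, and Ilk and Taf10, which are not of this family, had R over N log2 ratios of 0.14 and 0.16. This interval and the next were chosen after their values were seen.

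Another cluster lay at chr1:85012266-85550098, beside Sp110 and Sp140, genes of nuclear bodies that interferons induce. Of 12 loci, 11 stood at least 2-fold higher in R than in N, with a median log2 ratio of 1.68 and a summed FPKM of 15.4, 13.8 and 40.5. Of the 11, 6 had an FPKM under 1 in N and P and were compared only through R, where they had to be higher. MSTRG.341 (A530040E14Rik, chr1:85111089-85114234) had 2.40, 1.80 and 8.48, a ratio of 3.53 (2.85 to 4.41). MSTRG.348 (Gm2619) had 1.34, 0.92 and 4.44, and MSTRG.338 (Gm7582) 1.09, 1.14 and 3.78. The exception, MSTRG.333, was Rpl19-ps1, a ribosomal retrocopy, at 5.05, 3.98 and 4.52. Sp110 was at 7.19, 4.91 and 22.4 and Sp140 at 28.4, 21.4 and 41.6.

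Near listed interferon genes, 5 loci were found, with a median log2 ratio of R over N of 0.59. Of these, 2 stood at least 2-fold higher in R than in N, beside 4.57% of all loci. In P over N, 4 of the 5 could be compared. The remaining locus, among the 2 higher ones, was under the FPKM limit in N and P. It was compared only through R, so it had to stand higher there. MSTRG.2014 (chr11:58201730-58205990) lay inside Igtp, a GTPase of cell-autonomous immunity induced by interferon-gamma, on its opposite strand. It reached an FPKM of 2.47 (N), 1.37 (P) and 13.9 (R), with R over N at 5.62 (4.68 to 6.55), beside 28.8, 15.99 and 348.0 for Igtp. MSTRG.2014 was also picked for this ratio and reached an FPKM of 5 in R alone, so that R stood higher is no result. Its introns of 34 and 30 bases are shorter than those usually spliced, and reads of Igtp itself cannot be told from it without strand. MSTRG.2015, upstream of Irgm2 on the opposite strand, had 0.99, 1.05 and 1.54 beside 11.3, 7.24 and 118. MSTRG.4307, in an intron of Gch1, the first enzyme of tetrahydrobiopterin synthesis, had 3.71, 2.59 and 5.10 beside 2.88, 1.75 and 4.15. MSTRG.11185, 2531 bases from the antiviral gene Oasl2, had 5.48, 3.90 and 4.95 beside 41.8, 34.1 and 144, so here the gene was higher in R and the locus was not.

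Promoters of these genes were read for a motif of interferon signalling, the core of ISRE (GAAANNGAA), bound by interferon regulatory factors. Each window below is 300 bases of the RefSeq promoter (GRCm38.p6), 5′ to 3′ on the gene's strand, 250 before and 50 from the start site, with motif matches on either strand in capitals.
Igtp (chr11:58199306-58199605): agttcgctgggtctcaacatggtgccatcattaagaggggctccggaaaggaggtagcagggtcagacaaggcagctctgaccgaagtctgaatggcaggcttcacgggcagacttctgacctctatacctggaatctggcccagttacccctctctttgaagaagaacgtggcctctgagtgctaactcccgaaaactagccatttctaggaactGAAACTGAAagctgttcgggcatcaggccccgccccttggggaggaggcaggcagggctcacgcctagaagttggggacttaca
Irgm2 (chr11:58214727-58215026): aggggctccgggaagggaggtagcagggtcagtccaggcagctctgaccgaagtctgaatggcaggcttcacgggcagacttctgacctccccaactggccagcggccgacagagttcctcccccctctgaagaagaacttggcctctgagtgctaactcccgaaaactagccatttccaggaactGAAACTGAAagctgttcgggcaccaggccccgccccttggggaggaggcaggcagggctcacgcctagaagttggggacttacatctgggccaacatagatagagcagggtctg
A530040E14Rik (chr1:85105843-85106142): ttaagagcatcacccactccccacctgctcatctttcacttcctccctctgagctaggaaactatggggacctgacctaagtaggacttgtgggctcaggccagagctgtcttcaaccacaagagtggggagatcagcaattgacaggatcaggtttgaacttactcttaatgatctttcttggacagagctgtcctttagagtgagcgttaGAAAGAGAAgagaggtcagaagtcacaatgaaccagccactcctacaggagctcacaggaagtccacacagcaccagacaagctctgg
In the Igtp window ISRE starts at base 217, and in the Irgm2 window at 187. The window of A530040E14Rik holds ISRE at 213. Of 9 genes named here for R whose window was read, 4 hold it (Igtp, Irgm2, A530040E14Rik and Gm1966) and Sp110, Sp140, Oasl2, Gch1 and AU020206 do not. Of 32851 promoters, 8.56% hold ISRE, and no test was run. The 9 are those with a window out of 14 genes looked up for loci named here. The Igtp and Irgm2 windows are nearly the same around the motif, so the 4 are not independent. The 5′ end of MSTRG.2015, at base 58214850, lies inside the Irgm2 window.

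Of the other neighbour lists, antigen presentation had 2 loci and epithelial genes 1, neither past 2-fold in R over N, and none of 15 hypoxia genes was the nearest gene of a locus within 50 kb. MSTRG.6225, in H2-Q4, a class I heavy chain, had 1.10, 0.64 and 2.07 beside 210, 185 and 464 for the gene. MSTRG.4404, on the proteasome activator gene Psme2, had 1.30, 0.84 and 1.53 beside 78.6, 59.2 and 168. MSTRG.575, the Nap1l1 copy Gm4204 near the epithelial factor Elf3, had 45.7, 41.0 and 36.1. Immediate early genes had 4 loci. MSTRG.9951 and MSTRG.9952 (Junos, divergent from Jun) had 1.23, 1.03 and 0.89 and 4.97, 5.21 and 4.39, MSTRG.896 (41137 bases from Atf3) 1.51, 1.19 and 0.87, and MSTRG.6721 (16253 bases from Egr1) 2.73, 0.61 and 0.93. Over these 7 loci, 0 were 2-fold higher than N in either co-culture, beside 2.12% (P) and 4.57% (R) of all loci. MSTRG.6721 was 2-fold lower than N in both, and MSTRG.6225 was 2-fold higher in R than in P.

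Loci close to a RefSeq gene went with it in part. Within 5 kb or inside a gene with an FPKM of at least 1 (492 loci in R over N), 32 loci were at least 2-fold higher, and at 14 of them the gene was higher too, beside 3.07% of RefSeq genes. Of 62 lower loci, the gene was lower at 4, beside 1.87%. In P over N the gene was higher at 0 of 10 higher loci and lower at 1 of 28 lower ones. The Pearson correlation of both log2 ratios was 0.38 over the 492 loci in R over N, 0.39 over 500 in R over P and 0.11 over 484 in P over N. By position, it ran in R over N from 0.30 upstream and 0.32 in introns to 0.64 over the 93 loci on the downstream side, and these points share libraries and in part genes.

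Other loci higher in R were scattered. MSTRG.12890 (AU020206, chr7:75766681-75780456, a long non-coding RNA) was at 3.58, 3.65 and 9.34 FPKM, with R over N at 2.61 (2.42 to 2.83), with 2448 fragments in R. MSTRG.3330, the Rpl30 copy Rpl30-ps8, had 3.16, 11.6 and 14.2 and was higher in both co-cultures, while the family sum was 0.970 times N in P. MSTRG.5895 (Gm7535) and MSTRG.15431 (Gm14794), with 0.62, 2.28 and 5.65 and 1.13, 0.68 and 5.29, rested on 5 fragments each in N. MSTRG.5895 and MSTRG.15431 reached an FPKM of 5 in R alone and MSTRG.3330 in P and R, so their direction against N is no result. MSTRG.6254 was a 4-exon transcript on chromosome 17, 8236 bases from the ubiquitin-like gene Ubd. It was under the level for naming and is added after its values were seen. Its FPKM was 0.10, 0.05 and 3.62, from 10, 5 and 408 fragments. It passed the FPKM limit only through R, so it had to stand higher there.

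Of the 8 loci with the lowest R over N ratio among those reaching an FPKM of 5 in N or R, 4 lay inside RefSeq genes. These genes were not 2-fold lower themselves. MSTRG.712, in Mettl18, had an FPKM of 7.93 and 7.51 in N and P and no fragment in R, which is at least 10.7-fold lower than N against a floor of 3 fragments in that library. Mettl18 was at 1.42, 2.18 and 1.91. MSTRG.7159, in the endoplasmic reticulum GTPase gene Atl3, had 18.7, 15.7 and 5.94 beside 13.3, 15.9 and 15.2 for the gene, so N was 3.14 times R (2.22 to 4.58). MSTRG.516, in the DNA repair helicase gene Zranb3, had 5.75, 4.57 and 1.78 beside 2.06, 2.45 and 2.12 for the gene. The fourth was MSTRG.9425 (Gm17494), inside the glutathione synthesis gene Gclm, with 55.0, 45.5 and 18.1, a factor of 3.04 between N and R (2.61 to 3.55), while Gclm was at 8.13, 4.65 and 17.2. Gclm and the locus inside it thus went opposite ways in R. Among the lowest in R over P was MSTRG.3281, in Batf, a transcription factor gene of lymphocytes, with 5.40, 6.78 and 2.16 and Batf itself at 0.06, 0 and 0.27.

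Non-coding and histone loci were among the lowest in R too. MSTRG.9489 (Gm567, chromosome 3, up to 5 exons) had 5.90, 9.60 and 1.36. MSTRG.14815 covers Rn7sk, the small nuclear RNA that holds the elongation factor P-TEFb in check, and had 6.14, 3.77 and 1.02 from 34, 21 and 6 fragments. MSTRG.3727 (Hist1h2al, of the H2A histones that pack DNA) had 19.3, 7.44 and 5.10, and its most similar gene Hist2h2aa1 42.96, 21.6 and 7.17. MSTRG.15687 (Gm21887, chromosome X, near the midline gene Mid1) had 8.81, 3.04 and 2.60, and the overlapping MSTRG.15689 12.9, 21.03 and 7.46, so these overlapping assemblies were highest in different libraries.

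The retrocopies given next were named for a high P over N ratio. Of these, R was 2-fold above N at MSTRG.1884 alone, and MSTRG.8422 was under 2-fold in P (log2 ratio of 0.92). MSTRG.11886 and MSTRG.1884 were under an FPKM of 5 in N and named only through P, so their direction is no result. MSTRG.11886 (Gm44126, chromosome 6), a copy of Uxs1, an enzyme of nucleotide sugar synthesis, had an FPKM of 2.48 in N, 22.6 in P and 4.24 in R, a P over N ratio of 9.11 (5.87 to 14.6). Its sequence had 100% identity with Uxs1 over 512 bases, the gene was at 26.7, 21.99 and 22.7, and the fragments of both together were 0.892 times N (0.821 to 0.970). MSTRG.12272 (Rps25-ps1) had 7.39, 20.2 and 5.49, MSTRG.1884 (Hspd1-ps3, a copy of a mitochondrial chaperone gene) 4.87, 13.6 and 14.9, and MSTRG.8422 (Snrpert, a copy of the spliceosomal gene Snrpe) 11.6, 22.2 and 12.9. For these families the sum in P was 0.929, 0.991 and 0.903 times N. None of these sums was thus higher than in N. The Uxs1 gene had 26.7 in N against 2.48 at MSTRG.11886, so this copy could move that sum little.

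Loci that are no retrocopies were also among those highest in P. MSTRG.14184, on a GENCODE exon of the transcription factor gene Maf and 179 bases from its RefSeq model, had no fragment in N and 5.80 and 3.26 in P and R, at least 25.7-fold higher in P against the floor of 3 fragments, while Maf was at 1.83, 2.71 and 1.37. MSTRG.12223 joined 2 exons across 420227 bases of chromosome 6 and had 2.60, 11.2 and 1.17. MSTRG.9809 (chromosome 4) had 3.04, 6.68 and 4.09.

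The retrocopies lowest in P had parents that were not lower. Of the Rpl7a copies, MSTRG.4609 (Gm5854) had 130, 45.2 and 116, MSTRG.7285 (AC126944.1) 17.7, 4.66 and 13.7, and MSTRG.4742 (Gm46522) 13.6, 4.53 and 11.5, with N over P between 2.88 and 3.79 and the gene at 1.71 times N. MSTRG.8973 (Gm10254), a copy of the splicing regulator gene Tra2b, had 16.3, 4.52 and 6.35, and Tra2b 26.4, 28.3 and 32.5. MSTRG.9091 (Gm10705), a copy of the ubiquitin-conjugating enzyme gene Ube2l3, had 17.2, 3.86 and 7.38, and Ube2l3 27.3, 29.5 and 33.8.

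Very wide gaps between libraries were seen at the 4 antigen receptor loci, which B cells and their plasma cell progeny transcribe. MSTRG.3455 (Ighm, the IgM heavy chain) had an FPKM of 7.12 in N, 0.03 in P and 14.2 in R. MSTRG.11850 (Igkc, the kappa light chain constant region) had 7.14, 0 and 15.4, MSTRG.11845 (Igkv1-110) 1.22, 0 and 2.97, and MSTRG.3458 (Ighv2-9) 0.41, 0 and 1.23. Together they had 319 fragments in N, 1 in P and 729 in R, so R over N was 2.13 (1.87 to 2.44). At Igkc, N was at least 36.99-fold and R at least 85.8-fold above P against the floor of 3 fragments. The library labelled P, from a co-culture with splenocytes, thus held almost none, and the library labelled N, from CSCsp alone, did hold some. Whether the libraries N and P are exchanged was not tested.

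**Figure D5:**
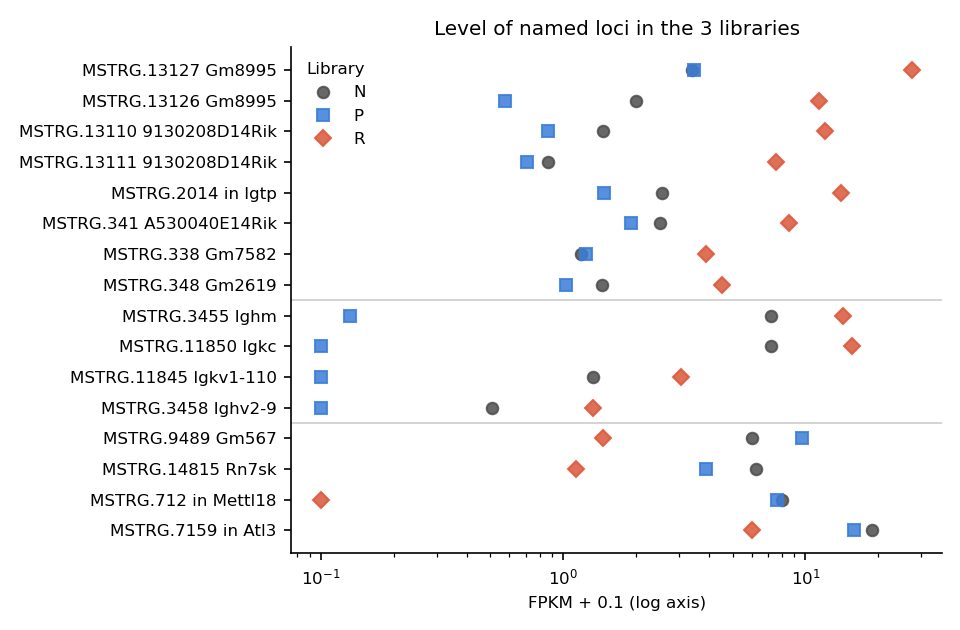
FPKM + 0.1 (log axis) of 16 loci in the libraries N, P and R: 8 of the Gvin, Igtp and Sp110 regions, the 4 antigen receptor loci, and 4 that were lower in R. The first 8 were chosen with their values known, so that their R points lie to the right of N and P is no result. MSTRG.333 and MSTRG.2015 of the same regions, under 2-fold in R over N, are not drawn. At 0 in P are 3 antigen receptor loci.

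Markers of leukocytes moved with these values in part. The summed FPKM of 5 B and plasma cell markers was 0.99 in N, 0.21 in P and 1.97 in R, with 4 of the 5 at 0 in P. It was 20.1, 0.81 and 11.4 for neutrophils and 51.8, 18.9 and 50.7 for 6 macrophage markers, of which Lyz2 alone had 28.9, 0.31 and 6.51. It was 0.07, 0 and 0.46 for T cells, 0.33, 0 and 1.61 for natural killer cells and 9.71, 5.04 and 11.97 for erythroid cells. It was 30.5, 36.2 and 37.7 for 6 pan-leukocyte markers, of which Itgb2 alone had 26.3, 35.9 and 34.1; 3 of the 6 reached an FPKM of 1 in N and in R but 1 in P, where 2 were at 0. It was 14.1, 17.2 and 18.3 for fibroblasts and 1926, 1636 and 1413 for tumor epithelium. Their part in the values of the loci was not tested. In RNA of whole spheroids, fewer cells of a type and less RNA per cell cannot be told apart.

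A few members host microRNAs. MSTRG.15229 (chrX:19145275-19167295, minus strand, Gm14636) spans the hairpins of miR-221 and miR-222, microRNAs studied in aggressive breast cancer, and had an FPKM of 2.44 in N, 1.57 in P and 1.97 in R. Both 3p arms share a seed, the bases 2 to 8 that pair with targets, in capitals here (RefSeq).
mmu-miR-221-3p: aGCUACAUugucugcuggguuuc
mmu-miR-222-3p: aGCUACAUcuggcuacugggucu
The FPKM is that of the assembled host transcript, and the mature microRNAs were not measured. No exon of the assembled transcripts covers either mature sequence. MSTRG.6203, on miR-8094 in Ddx39b, had 4.89, 6.11 and 2.83, and MSTRG.5585, at miR-568 in Zbtb20, 0, 0 and 0.02.

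On chromosome Y there were 29 loci. MSTRG.15683, a single block of 1760 bases with no GENCODE gene, had an FPKM of 132, 114 and 141, while the loci of the chromosome summed to 350, 305 and 361. Ddx3y, a protein-coding gene of the chromosome, was at 0 in all 3 libraries. The splenocytes were of female mice, and whether the reads at these loci come from chromosome Y was not tested.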

How the data were processed

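RNA of CSCsp was sequenced as 1 library per condition. The authors aligned reads with HISAT2 2.2.0 and assembled transcripts with StringTie (2.1.3 in the submitters' processing notes, 2.1.5 in the file headers), then measured every library on the merged assembly. Each deposited file lists transcripts and exons with coverage, FPKM and TPM, all used as deposited. The notes name mm9, but 99.4% of 23368 symbols overlap their GENCODE M21 gene, so coordinates are GRCm38. Libraries were grouped by their labels.

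The FPKM of the transcripts of a locus was summed. Fragments were coverage times length over an assumed 300 bases for each read pair, and ratios have exact Clopper-Pearson 95% intervals (SciPy 1.17.1, Python 3.11.15). With 1 library per condition there is no test, and depth limits what a ratio can show. The 3 comparisons used log2 of FPKM + 0.1 for loci at an FPKM of 1 or more in at least 1 of both libraries. Parent genes were found with BLAST 2.17.0 (word size 16) against GENCODE M21 coding transcripts (largest score), at 80% identity over 50% of the locus's annotated transcript or more. The scripts were tested on simulated data. Loci named were the 10 of highest mean, the 8 highest and 8 lowest ratios per comparison at an FPKM of at least 5, the 3 longest, the 3 with most exons, up to 4 per list of neighbour genes within 50 kb, and antigen receptor loci; others were added after their values were seen. The members and lists were chosen with earlier results of these data known. No genome sequence was used here, so base composition, repeats and splice sites of the loci were not analysed here.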

Additional observations from a re-analysis of the deposited data

How the results depend on the processing

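Counts of loci at least 2-fold higher and lower are given first for P against N, then for R against N, then for R against P. With a pseudocount of 1 they were 15 and 25, 49 and 55, and 57 and 42, with medians of -0.15 (-0.149758) in R over N and -0.15 (-0.146133) in R over P. At an FPKM of at least 5 they were 7 and 18, 15 and 37, and 25 and 20, with medians of -0.04 (-0.0438), -0.18 and -0.12. For loci with 2 or more exons they were 9 and 32, 47 and 56, and 61 and 55, with medians of 0.03 (0.0268), -0.05 (-0.0487) and -0.10 (-0.0988). At 5 kb or further from a gene, 62 were lower in P over N, 79 higher and 103 lower in R over N, and 89 and 109 in R over P. TPM gave medians of 0.04 (0.0381) in P over N and -0.16 (-0.1565) in R over N. Rescaling by RefSeq genes, whose scaling differed by 0.03 (P) and 0.08 (R) on the log2 scale, gave -0.04 (-0.0413), -0.27 and -0.24. Exchanging N and P gave 105 and 59 in P over N with a median of 0.00872. Without the 10 highest loci, the share of all FPKM was 9.61%, 9.54% and 8.49%. In alternatives chosen after seeing the data, loci with no similar gene had 37 higher in P over N, 78 higher in R over N and medians of -0.28 in R over N and -0.30 in R over P. Those with at least 100 fragments over the 3 libraries had 6 and 26, 29 and 52, and 41 and 37, with a median of -0.16 in R over P. More loci were higher than lower in R over P with a pseudocount of 1, at an FPKM of at least 5, with 2 or more exons and with at least 100 fragments, opposite to the value reported. The R over N and R over P medians stayed below 0 under each alternative run, while that of P over N lay on either side of 0. Of 76 values of named loci, 19 moved by more than their counting interval with a pseudocount of 1, 11 with rescaling, 8 with TPM, 8 with the transcript of highest mean alone and 3 with a pseudocount of 0.01. Where fewer loci were compared, fewer could be counted; the cause of the other shifts was not tested. Depth limits single loci, which held a median of 63 fragments over both libraries. No paired analysis was possible because each condition has 1 library.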
